A study of Mus musculus with 4 samples.

Results

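The RUNX genes and their cofactors were followed in macrophages grown from mouse bone marrow, as 6 genes chosen by name among the 16375 genes listed. These were Runx1 and Runx2, the paralogs of Runx3, then Cbfb, Runx1t1, Tle3 and Tle4, whose products act together with RUNX proteins. All 6 were listed, and Runx3 itself was read only as a reference. The bone marrow cells came from WT mice or from mice lacking the long non-coding RNA lncLy6c (LNCKO, a CRISPR-Cas9 deletion on the C57BL/6J background) and were grown with M-CSF, the macrophage growth factor. RNA was taken after 24 h with butyrate, a fatty acid made by gut bacteria, at 500 µM, or without it. Each genotype gave a control and a butyrate library, 1 of each, so no difference below has a replicate check and no p-value was computed. The methods describe the mice of the study in general as a few weeks old and of either sex; the age and sex behind each of these cultures, and whether mice were pooled, were not found in the sources used here. Each value for LNCKO rests on the sample titles, since the column names do not spell the genotype and lncLy6c was not listed under that name.

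RUNX proteins bind DNA through a conserved Runt domain and switch genes on or off depending on their partners. CBFβ, the product of Cbfb, does not touch DNA itself but strengthens the DNA binding of every RUNX protein. TLE3 and TLE4 are Groucho-type corepressors that attach to the end of RUNX proteins, and RUNX1T1 (ETO) is a corepressor best known from its fusion to RUNX1 in acute myeloid leukaemia. RUNX1 is needed for blood stem cells to arise, RUNX2 directs bone formation and is also found in plasmacytoid dendritic cells, and RUNX3 is known from cytotoxic T cells and tissue macrophages.

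The RUNX paralogs carry binding sites for their own protein family near their distal start sites, and these are shown because the paralogs are compared with each other throughout. The RUNX motif AACCACA, or its reverse complement TGTGGTT, was searched on both strands of 32851 RefSeq promoter windows of GRCm38.p6, each of 300 bases, with 250 before and 50 after a start. It was present in 5.27% of windows, and 0.204% held 2 or more matches. Of the members, 5 had a window (7 windows in all), and 2 of them, Runx1 and Runx2, held the motif. In the distal windows of Runx1, Runx2 and Runx3 a pair of motifs lay side by side. This tandem, AACCACAGAACCACA, stood on the gene strand of 3 of the 32851 windows, those of the 3 RUNX genes, and on the opposite strand of 1 more, Gm16225, whose window overlaps that of Runx3. The tandem was picked for the count after the windows had been read. The 30 bases around it, with the motifs in capitals, were at chr16:92826025-92826054 for Runx1, chr17:44814583-44814612 for Runx2, both on the - strand, and chr4:135120503-135120532 for Runx3 on the + strand.
Runx1: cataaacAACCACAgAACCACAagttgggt
Runx2: cacaaacAACCACAgAACCACAagtgcggt
Runx3: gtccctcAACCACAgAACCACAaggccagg
With the base at the distal RefSeq start as the first position, the tandem began at position 28 in Runx1 and at position 23 in Runx2. In Runx3 it began 135 bases before the start (position -135).

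Runx2 held 1 further motif upstream of its start, which began at position -81 and gave its window 3 matches in all. The 250 bases before its start (chr17:44814628-44814877, - strand, motif in capitals) are given because Runx2 differed most between the libraries.
Runx2 upstream: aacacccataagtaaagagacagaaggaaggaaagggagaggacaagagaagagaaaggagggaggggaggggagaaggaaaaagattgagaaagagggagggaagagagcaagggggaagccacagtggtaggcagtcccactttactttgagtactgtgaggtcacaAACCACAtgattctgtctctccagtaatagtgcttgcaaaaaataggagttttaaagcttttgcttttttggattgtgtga
The second Runx1 window, at its proximal start, held 0 matches, as did the windows of Cbfb, Tle3 and Tle4. A match describes the letters of the window and no binding was measured here, and the gene-level values do not separate the distal from the proximal promoter.

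The deposited values were FPKM, fragments per kilobase of gene per 1000000 fragments, and their length was the whole gene span with introns. Multiplied back, they gave library totals from 53363944 to 65521713 fragments, and all 6 members had whole numbers of fragments in all 4 libraries, within 0.001 fragments. Levels of 1 gene are therefore given as FPKM with a 95% exact (Clopper-Pearson) interval, which covers counting error only. Levels of different genes are compared as exon-length levels, fragments per kilobase of exon per 1000000, because spans differ greatly: that of Runx2 is 36.1 times its exon length and that of Tle3 is 3.96 times. Whether fragments within introns were counted is not stated, so the order of genes is less certain than the order of libraries. A mean of at least 100 fragments was required for a change to be computed, which 11261 genes reached, 5 of the 6 members among them.

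Runx1t1, the ETO corepressor, was near the limit of detection. It had 8 fragments without and 3 with butyrate in WT, and 0 without and 8 with butyrate in LNCKO. The count of 0 allows up to 3 fragments as a one-sided limit, an FPKM of 0.000374. The exact interval, which is two-sided, reached an FPKM of 0.00046 there and began at 0.000408 in WT control, and the intervals of all 4 libraries overlapped. Its changes were not computed.

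Per kilobase of exon, the other 5 members stood in 1 order in all 4 libraries, Cbfb, Tle3, Tle4, Runx1 and Runx2 from high to low, and no neighbours in that order had overlapping intervals. In WT control, the exon-length level of Cbfb was 50.4, with Tle3 at 16.35, Tle4 at 13.4, Runx1 at 11.1 and Runx2 at 8.37. With the length of the longest coding transcript in place of all exons, Runx1 stood above Tle4 in all 4 libraries, so those neighbours are not separated. The Cbfb level was 2.47 to 2.62 times the summed level of Runx1 and Runx2, a sum that leaves out Runx3. The exon-length level of Runx3 was 32.6 without and 65.7 with butyrate in WT, and 9.73 and 13.3 in LNCKO. In WT butyrate it was above that of Cbfb, 40.7, so the ratio does not describe Cbfb against all RUNX genes. Runx1 was 1.32 times Runx2 without and 1.88 times with butyrate in WT, and 1.31 and 1.36 times in LNCKO, so the balance of the paralogs stood apart in WT butyrate. Tle3 was 1.22 and 1.42 times Tle4 in WT without and with butyrate, and 1.11 and 1.18 times in LNCKO.

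**Figure D1:**
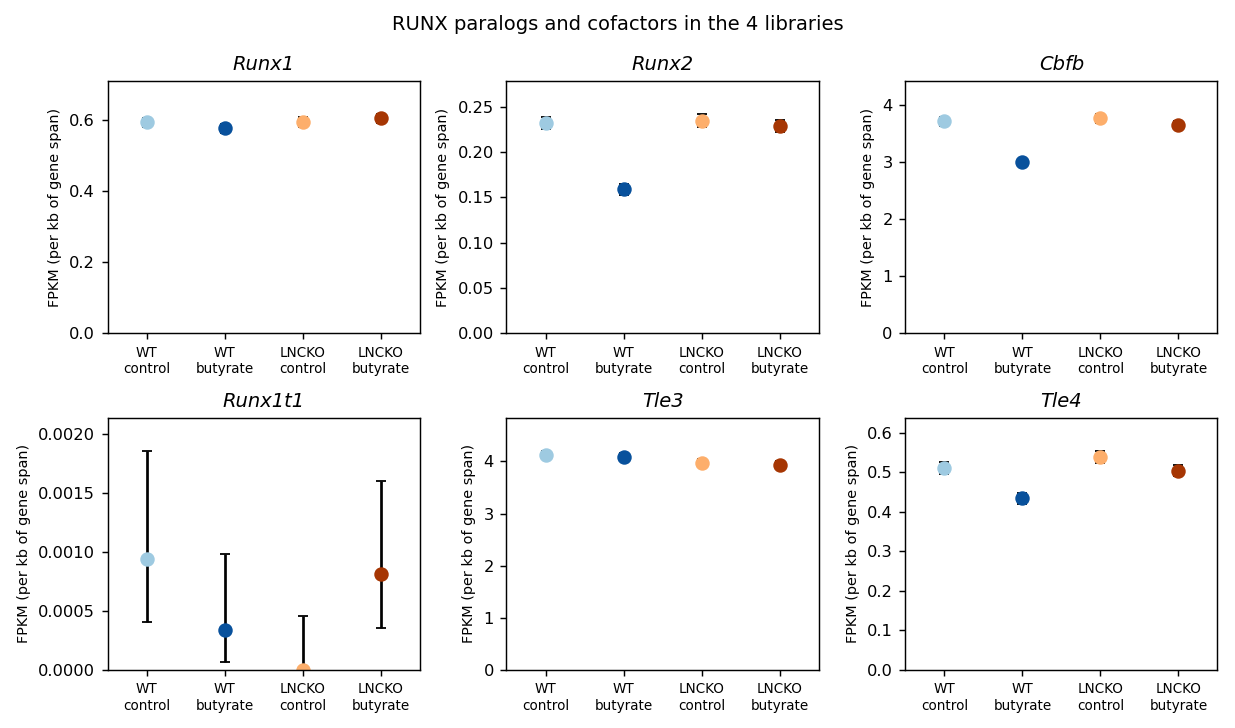
FPKM of the 6 members (vertical axes, per kilobase of gene span, each from 0) in the 4 libraries, with bars for the 95% exact counting interval; where no bar is seen it is within the point. Runx2, Cbfb and Tle4 are lowest in WT butyrate, Runx1 and Tle3 lie nearly level, and Runx1t1 rests on 0 to 8 fragments.

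Runx1 (ENSMUSG00000022952; GRCm38 chromosome 16, 92601466 to 92826149, - strand) was nearly level in the 4 libraries. In WT its FPKM was 0.592 without and 0.575 with butyrate, and in LNCKO 0.593 without and 0.603 with it, from 7111 to 8879 fragments. As log2 ratios of FPKM, the butyrate change was -0.04 in WT (interval -0.09 to 0.004) and 0.02 in LNCKO (-0.02 to 0.07). The genotypes differed by 0.003 without butyrate (-0.04 to 0.05) and by 0.07 with it (0.025 to 0.11). With median-ratio scaling the difference with butyrate was 0.018, below that interval. An antisense gene not listed in the file, Gm26626, shares 106 exon bases with Runx1, and whether the counting used the strand is not stated.

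Runx2 (ENSMUSG00000039153; chromosome 17, 44495987 to 44814797, - strand) had its lowest level in WT macrophages with butyrate. In WT the FPKM was 0.232 without butyrate (0.225 to 0.239) and 0.159 with it (0.153 to 0.1645). In LNCKO it was 0.235 without butyrate (0.228 to 0.242) and 0.229 with it (0.223 to 0.236). The intervals of WT control and both LNCKO libraries overlapped, and that of WT butyrate lay below all of them. The numbers of fragments were 4173, 2996, 3997 and 4788 in the same order.

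With butyrate, Runx2 differed by -31.6% in WT, or -0.55 on the log2 scale (-0.62 to -0.48), and by -2.44% in LNCKO, or -0.04 (-0.10 to 0.025). The change in WT lay 0.51 below that in LNCKO on the log2 scale (-0.60 to -0.42 from counting error, by a normal approximation). Between the genotypes, Runx2 differed by 0.02 without butyrate (-0.045 to 0.08) and was 44.4% higher in LNCKO with butyrate, a log2 difference of 0.53 (0.46 to 0.60). These comparisons share the WT butyrate library, and both large values rest on it. Because FPKM on the gene span is small for Runx2, adding 0.1 to it before the ratio gave -0.36 in WT and adding 1 gave -0.089. The antisense gene Runx2os1, not listed in the file, shares 519 exon bases with Runx2.

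The position of Runx2 among all genes was read beside these values. In WT, Runx2 ranked 393 from the lowest log2 ratio among 11261 tested genes, percentile 3.48, and in LNCKO it stood at percentile 45.8. The central 95% of log2 changes ran from -0.62 to 0.67 in WT and from -0.405 to 0.45 in LNCKO, so Runx2 lay inside the range of most genes in each. The median change of all tested genes was -0.06 in WT and -0.02 in LNCKO. By exon length, the median change in WT was -0.02 for genes of short, -0.05 for genes of middle and -0.08 for genes of long exon length, the last of which hold Runx2.

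Cbfb (ENSMUSG00000031885; chromosome 8, 105170674 to 105217989, + strand), the shared partner subunit, had the same ranking of libraries as Runx2 with a smaller difference. Cbfb had an FPKM of 3.71 without and 2.99 with butyrate in WT, and of 3.76 and 3.645 in LNCKO, from 8377 to 11299 fragments. With butyrate it differed by -19.3% in WT, or -0.31 in log2 (-0.35 to -0.27), and by -3.17% in LNCKO, or -0.05 (-0.09 to -0.01). Between the genotypes it differed by 0.02 without butyrate (-0.02 to 0.06) and by 0.285 with butyrate (0.24 to 0.33). The change in WT lay 0.26 below that in LNCKO (-0.32 to -0.21), at percentile 16.6 of all tested genes. With median-ratio scaling, the Cbfb change in WT was -0.254 and the genotype difference with butyrate was 0.233, each outside its interval.

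The Groucho corepressors divided in the same way as the paralogs. Tle4 (ENSMUSG00000024642; chromosome 19, 14448150 to 14598051, - strand) had an FPKM of 0.511 without and 0.435 with butyrate in WT, and of 0.539 and 0.504 in LNCKO, so that its libraries ranked as those of Runx2 and Cbfb did. With butyrate it differed by -15% in WT, or -0.235 in log2 (-0.30 to -0.17), and by -6.41% in LNCKO, or -0.10 (-0.155 to -0.04). The change in WT lay 0.14 below that in LNCKO (-0.225 to -0.05), at percentile 32.1 of all tested genes. Tle3 (ENSMUSG00000032280; chromosome 9, 61372366 to 61418497, + strand) had an FPKM of 4.13, 4.09, 3.97 and 3.94 in the same order of libraries. Its butyrate change was -0.01 in WT (-0.05 to 0.02) and -0.01 in LNCKO (-0.05 to 0.03), and LNCKO differed from WT by -3.85% without butyrate and by -3.64% with it. The Tle3 differences by genotype stood at percentiles 28.3 and 30.1 of all tested genes and rest on 1 library a group, so they are given as values only. Its butyrate changes were within counting error at this depth.

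**Figure D2:**
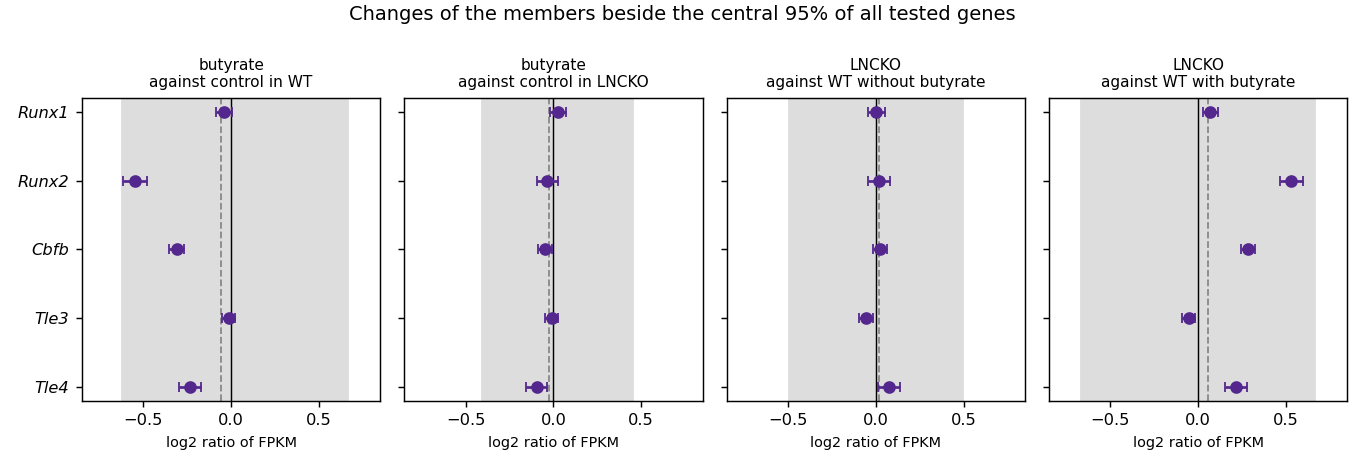
Log2 ratio of FPKM of the 5 members with at least 100 fragments on average, in each of the 4 comparisons. Points are single-library ratios with 95% exact counting intervals, the grey band holds the central 95% of all 11261 tested genes and the dashed line is their median; Runx2 stands lowest in WT at -0.55 and every member lies inside the band.

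Read as a list, the 5 members had a median log2 butyrate change of -0.235 in WT, from -0.55 to -0.01, and of -0.04 in LNCKO, from -0.10 to 0.02. Counting intervals are narrow in libraries of this depth. With butyrate they lay below 0 for 3 of 5 members in WT, beside 43.9% of the 11079 tested genes with whole fragments, and for 2 of 5 in LNCKO, beside 31.1%. They lay above 0 for 0 of 5 in each, beside 23.4% in WT and 19.9% in LNCKO. Between the genotypes without butyrate, 1 of 5 lay below 0, beside 21.2%, and 1 of 5 above, beside 30.2%. With butyrate 1 of 5 lay below 0, beside 24%, and 4 of 5 above, beside 43.9%. Runx1 is among the 4, and its difference was 0.018 with median-ratio scaling, outside its interval. No member was past 1.5-fold in any of the 4 comparisons: 0 of 5 with butyrate in WT, where 6.31% of all tested genes were, 0 of 5 in LNCKO against 2.6%, 0 of 5 between the genotypes without butyrate against 3.53%, and 0 of 5 with butyrate against 6.54%. At 1.3-fold, a limit chosen after seeing the data, Runx2 was the 1 of 5 members past it with butyrate in WT, beside 15.2% of all tested genes, and between the genotypes with butyrate, beside 14.9%. At that limit 0 of 5 members were past it in LNCKO, beside 6.46%, and between the genotypes without butyrate, beside 7.89%. The share in WT is set by 1 gene and cannot be set apart from the background. Without butyrate the genotypes differed little in these genes, with log2 differences from -0.06 to 0.08 and a median of 0.02.

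Runx3 served as the reference. It moved the other way in WT, where its FPKM was 2.01-fold higher with butyrate while that of Runx2 was 0.684-fold that of the control. In LNCKO, Runx3 was 1.36-fold higher with butyrate, while Runx2 was 0.976-fold that of the control. Per kilobase of exon, Runx1 was 0.339 and 0.163 times Runx3 in WT without and with butyrate, and 1.14 and 0.849 times in LNCKO. Only 1 of the 4 Runx3 values gave a whole number of fragments, against 4 of 4 for each of the 6 members, so these ratios carry the doubt of the Runx3 values and the members' own values do not.

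Genes with the most similar pattern over the 4 libraries were found by the distance between centred log2 FPKM values, among 7752 genes with at least 1000 fragments on average. For Runx2 they were Cenpe at a distance of 0.0113, Ccng2 at 0.0213 and Hmgn3 at 0.0235, and 9 genes lay within 0.05. Cenpe had an FPKM of 1.17 without and 0.803 with butyrate in WT, and of 1.20 and 1.16 in LNCKO. For Cbfb the nearest were Tdp2 at 0.00369, Zfp131 at 0.00588 and Gna15 at 0.0123, with 87 genes within 0.05. Tle4 lay at 0.0638 from Cbfb, with 162 genes nearer, and Runx2 at 0.207, with 3055 genes nearer. From Runx2, Cbfb lay at 0.207 with 390 genes nearer, and Tle4 at 0.259 with 766 genes nearer. The share of all genes that ranked the libraries as Runx2, Cbfb and Tle4 did was not counted. For Runx1, whose values were flat, Birc2 at 0.0102, Ube2d2a at 0.0114 and Mief1 at 0.0118 came first among 353 genes within 0.05. Likeness over 4 single libraries is a description and carries no information on function.

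The cultures held other cells, and their markers were read beside Runx2 and Cbfb. All 10 macrophage markers were present, with Csf1r, the M-CSF receptor, at 68749 to 86908 fragments. B cell markers were present as well: 7 of 7 were tested, and 0 of them were at or under 3 fragments in all libraries. Their summed level, per 1000000 fragments, was 1415 without and 1172 with butyrate in WT, and 1460 and 1478 in LNCKO, so WT butyrate was lowest, as for Runx2, Cbfb and Tle4. With butyrate 7 of 7 were lower in WT, where 60.8% of all tested genes were, with a median log2 change of -0.25 and a range from -0.87 for Vpreb3 to -0.09 for Ms4a1, and the median was 0.003 in LNCKO.

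Markers of plasmacytoid dendritic cells, which are known to contain RUNX2, gave a like picture. Their summed level was 1301, 1139, 1242 and 1382 in the same order and unit. With butyrate 5 of 7 were lower in WT, beside 60.8% of all tested genes, with a median of -0.38. In LNCKO 6 of 7 were higher, beside 42.1%, with a median of 0.11. Siglech, a receptor that defines these cells in mice, had 4645, 3544, 4002 and 4692 fragments, and its log2 ratio with butyrate was -0.46 in WT but -0.07 in LNCKO. The sum rests mostly on Bst2, Spib and Tcf4, with 32699, 20232 and 11538 fragments in WT control. With butyrate in WT, Bst2 changed by 0.02, Spib by -0.38 and Tcf4 by -0.42. Spib and Tcf4 are also made by B cells, so this sum is not separate from that of the B cell markers. In bulk RNA, fewer cells of a type and less RNA per cell cannot be told apart, and the part of these cells in the Runx2, Cbfb and Tle4 values was not tested.

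The B cell and plasmacytoid dendritic cell sums were lowest in WT butyrate, as Runx2 was, but did not rank the other libraries as Runx2 did. Stromal and bone-forming cells, where RUNX2 is best known, had markers whose sum was lowest in LNCKO control and also ranked the libraries in another order. Their 7 markers summed to 268.9 without and 249.2 with butyrate in WT, and to 78.5 and 164 in LNCKO, in that unit. Although the sum was lower with butyrate in WT, 4 of 7 were higher there, beside 39.2% of all tested genes, with a median of 0.28. In LNCKO 7 of 7 were higher with butyrate, beside 42.1%, with a median of 1.11. Without butyrate 7 of 7 were lower in LNCKO, beside 43.8% of all tested genes, with a median log2 difference of -1.84. Runx2 differed by 0.02 there, and the part of these cells in the Runx2 values was not tested. The macrophage markers themselves were higher with butyrate in WT for 8 of 10, beside 39.2% of all tested genes, with a median of 0.19. In LNCKO 6 of 10 were higher, beside 42.1%, with a median of 0.06. Their summed level was 15900 without and 21030 with butyrate in WT. It was 13790 and 10120 in LNCKO, where Lyz2 changed by -0.89. Between the genotypes with butyrate, 9 of 10 were lower in LNCKO, beside 39.4%, with a median of -0.198. Genotype also coincided with Y-linked genes, whose 4 members summed to 3.6 and 2.23 in WT and to 288.1 and 308 in LNCKO. For every member, a difference by genotype and one by sex cannot be told apart.

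**Figure D3:**
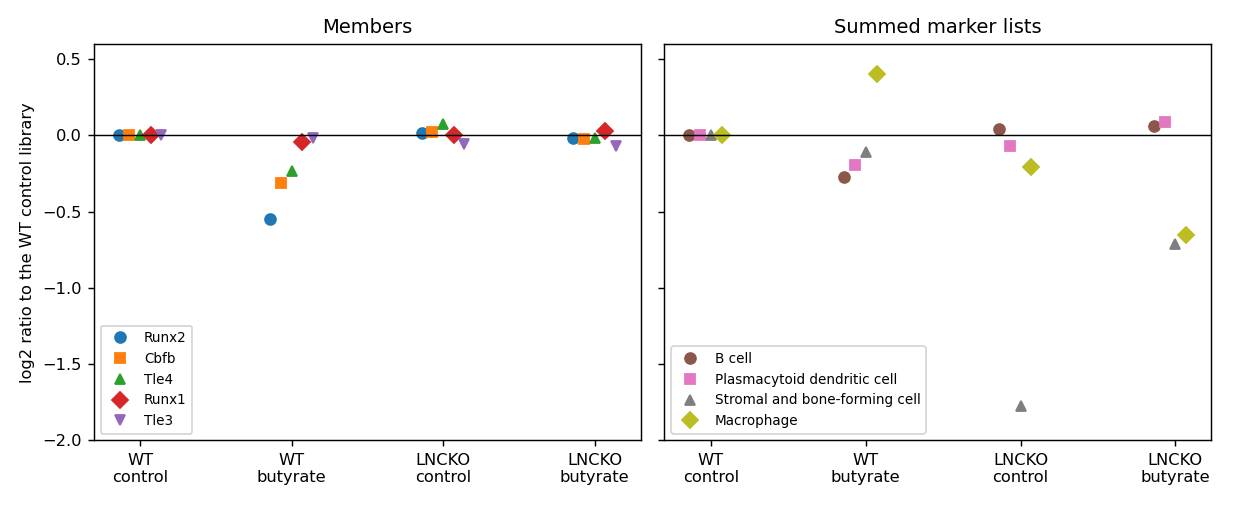
Left, log2 ratio of each member's FPKM to the WT control library; right, the same for the summed level, per 1000000 fragments, of 4 marker lists. Runx2 at -0.55, Cbfb at -0.31 and Tle4 at -0.235 are lowest in WT butyrate, where the B cell and plasmacytoid dendritic cell sums are lowest too, while the stromal sum is lowest in LNCKO control.

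Other genes of the RUNX network were taken from 8 lists of 57 names, of which 55 were listed and 47 were tested. With butyrate in WT, 5 of the 47 were past 1.5-fold higher and 1 lower (12.8%, beside 6.31% of all tested genes), and in LNCKO 2 were higher and 2 lower (8.51%, beside 2.6%). Between the genotypes 2 were higher and 1 lower without butyrate (6.38%, beside 3.53% of all tested genes), and 2 higher and 4 lower with it (12.8%, beside 6.54%). In total 11 genes were past 1.5-fold in at least 1 comparison, of which Elane, Cd8a and Col1a1 are also markers of other cells. The median log2 change of the 47 genes was -0.05 in WT and -0.03 in LNCKO, near that of all genes.

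Among the 6 listed Groucho/TLE and ETO relatives, Tle5 was the highest, with an exon-length level of 56.5 to 66.4. Its product is a short family member that lacks the repeat domain of the corepressors. The log2 change of Tle5 with butyrate was 0.23 in WT and -0.02 in LNCKO. Tle6, best known from the oocyte, had 220 fragments without and 451 with butyrate in WT, and 248 and 270 in LNCKO. Its log2 ratio was 0.97 in WT (0.73 to 1.205) and -0.17 in LNCKO (-0.43 to 0.08).

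Tle1, a corepressor paralog of Tle4, had 615, 405, 429 and 640 fragments in the same order. Its log2 change was -0.67 in WT (-0.86 to -0.49) and 0.28 in LNCKO (0.10 to 0.46), and it was the relative past 1.5-fold lower in WT. Tle2 had 98, 139, 111 and 78 fragments, with a change of -0.805 in LNCKO (-1.24 to -0.37). Cbfa2t2 and Cbfa2t3, the relatives of Runx1t1, were present at 1365 to 3387 fragments. Cbfa2t2 changed by -0.05 in WT and -0.007 in LNCKO, and Cbfa2t3 by -0.10 in WT (-0.175 to -0.03) and -0.24 in LNCKO (-0.31 to -0.17).

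Among the corepressor partners, the coactivators and modifiers, and the ubiquitin ligases of RUNX proteins, 0 genes were past 1.5-fold with butyrate in either genotype. Of all tested genes, 6.31% were past it in WT and 2.6% in LNCKO, so a count of 0 in lists this short is near the background. All 7 corepressor partners, Ncor1 the highest of them with an exon-length level of 18.6 to 20.6, were lower with butyrate in WT, with a median log2 change of -0.09. Of all tested genes, 60.8% were lower there and the median was -0.06, so the list lay near the background. Of the 8 coactivators and modifiers tested, 4 stood higher with butyrate and 4 lower in WT, and the kinase gene Pim1 had the highest exon-length level. The 4 ubiquitin ligase genes, led by Wwp1, had a median change of -0.14 in WT, with 1 higher and 3 lower.

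Of the DNA-binding partners, 1 of 9 was past 1.5-fold with butyrate in WT, beside 6.31% of all tested genes, and 1 of 9 in LNCKO, beside 2.6%. Between the genotypes 2 of 9 were past it without butyrate, beside 3.53%, and 1 of 9 with it, beside 6.54%. The list had a median log2 change of 0.04 with butyrate in WT. Spi1, encoding PU.1, was the highest of the 9 partners and changed by 0.04 in WT and 0.01 in LNCKO. Tal1 changed by 0.79 in WT (0.55 to 1.03). Its FPKM was 0.265 without and 0.457 with butyrate in WT, and 0.418 and 0.390 in LNCKO, so WT control was lowest. Without butyrate Tal1 was 0.66 higher in LNCKO than in WT (0.41 to 0.91). Erg changed by -0.66 in LNCKO (-0.83 to -0.49). Gata2, a gene of progenitors and mast cells, was 0.84 higher in LNCKO than in WT without butyrate (0.70 to 0.99). Among myeloid genes with RUNX-bound control regions, Csf1r changed by -0.001 in WT and -0.09 in LNCKO, while Elane, encoding neutrophil elastase, changed by 0.68 in WT (0.65 to 0.71) and -0.04 in LNCKO. Of the 10 neutrophil markers, Elane among them, 7 were higher with butyrate in WT, beside 39.2% of all tested genes, with a median of 0.24. In LNCKO 3 were higher, beside 42.1%, with a median of -0.04. The part of neutrophils in the Elane value was not tested.

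Of the 4 tested bone genes that RUNX2 controls, 2 were higher and 2 lower with butyrate in WT, where Runx2 was lower. In LNCKO 4 were higher. Of all tested genes, 39.2% were higher with butyrate in WT and 42.1% in LNCKO. Spp1, encoding osteopontin, which macrophages also make, had an FPKM of 145.8 without and 254.6 with butyrate in WT, and of 145.6 and 233.6 in LNCKO. It was thus higher with butyrate in each genotype, by 0.80 in WT (0.79 to 0.82) and 0.68 in LNCKO (0.67 to 0.70). Mmp13, a collagenase gene, changed by 0.64 in WT and 0.31 in LNCKO, whereas Col1a1 changed by -0.35 in WT and 0.94 in LNCKO and belongs to the stromal list as well. Alpl, encoding alkaline phosphatase, changed by -0.23 in WT (-0.52 to 0.06) and 0.08 in LNCKO (-0.21 to 0.375). Bglap, Ibsp and Sp7, which define bone-forming cells most closely, had 0 to 35 fragments and were not tested. Of the T cell genes, Zbtb7b was the highest and changed by 0.08 in WT and 0.05 in LNCKO, and Cd8a was 0.70 higher in LNCKO than in WT with butyrate (0.48 to 0.92). Of the 4 tested T and NK cell markers, Cd8a among them, 3 were higher in that comparison, beside 60.6% of all tested genes. Their median was 0.625, and the part of these cells in the Cd8a value was not tested.

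**Figure D4:**
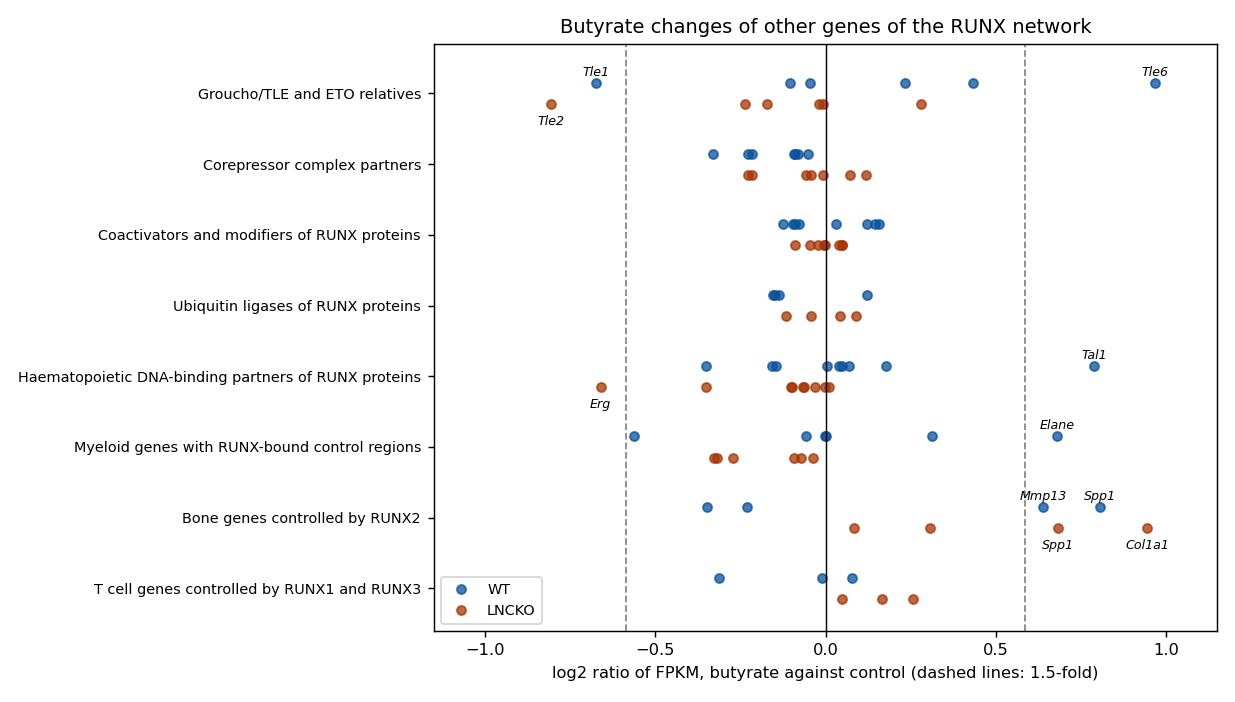
Log2 ratio of FPKM, butyrate against control, for each tested gene of the 8 lists of the RUNX network, in WT (blue) and LNCKO (brown), with dashed lines at 1.5-fold. Genes past the lines are named; in WT these are 5 higher and 1 lower, and Spp1 is past the line in each genotype.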

How the data were processed

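RNA sequencing of 4 libraries was analysed. The authors deposited FPKM values per gene, without counts. The submitters' processing notes name STAR 2.5.0c, Picard 1.126, bedtools 2.17.0, HTSeq 0.6.0 and DESeq2 with GRCm38 and mm10, without their roles, while the methods name an MGISEQ-2000 sequencer, paired-end reads and a web platform for analysis. Labels and methods also differ in the RNA and library kits named.

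Gene spans and exons were taken from GENCODE M21 (GRCm38), which matched 16342 genes. The total of each library was the number that made most values whole fragments on the span, and 98.1% of matched genes were whole in all 4 libraries, against 6.78% with exon length. Fragments are read pairs without molecular identifiers. Changes were log2 ratios of FPKM without a pseudocount, because a pseudocount shrinks genes of long span most. The ratio interval is the exact interval of 2 fragment numbers. The comparisons were butyrate against control in each genotype and LNCKO against WT in each treatment. Genes named are the members, Runx3, from the network lists those past 1.5-fold and the highest of each list, the 3 genes nearest in pattern to Runx1, Runx2 and Cbfb, and markers. The few others, such as Cbfa2t2, Cbfa2t3, Alpl, Bglap, Ibsp and Sp7, were named after their values were seen. The members and lists were chosen with earlier results of these data known. Steps were tested on simulated data. Python 3.11.15, numpy 2.4.6, pandas 2.3.3, scipy 1.17.1 and matplotlib 3.10.9 were used. Sequences are from RefSeq, and Runx1t1 was not matched.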

Additional observations from a re-analysis of the deposited data

Results flagged for a closer look

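Runx1 had opposite signs of its butyrate change in the genotypes, -0.04 in WT and 0.02 in LNCKO. The difference was -0.066 on the log2 scale, with an approximate counting interval from -0.131 to -0.002. It stood at percentile 44.3 of all tested genes. Each sign rests on 1 library per group, the counting interval of each change includes 0, the WT value was 0.014 with median-ratio scaling, and the difference was not tested.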

How the results depend on the processing

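No paired analysis was possible because each group has 1 library, and no library could be left out for the same reason. Of 60 member changes recomputed under the alternatives, 45 stayed within their counting interval and 15 left it. The sign changed in 5, all with median-ratio scaling and all of a log2 size of at most 0.042. With FPKM + 1 the median change of the members was -0.075 in WT, against -0.235, and 0.069 between the genotypes with butyrate, against 0.215, since FPKM on the gene span is below 1 for Runx1, Runx2 and Tle4. The count of members past the limit became 1 at 1.3-fold in WT and between the genotypes with butyrate, and was 0 in each comparison at 2-fold. All genes past 1.5-fold numbered 711 in WT, 293 in LNCKO, 398 between the genotypes without butyrate and 737 with it. In that order they numbered 97, 38, 46 and 108 with FPKM + 1, 337, 118, 174 and 378 with FPKM + 0.1, 1543, 957, 1194 and 1555 with a mean of at least 20 fragments, 172, 59, 85 and 209 where FPKM averaged 1 or more, and 2245, 1622, 1820 and 2324 without a filter. Filters admit more or fewer genes by construction. Depth limits Runx1t1 and Tle2.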

Other observations

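The summed levels of markers of further cell types were read in the same libraries. Neutrophil genes summed, per 1000000 fragments, to 7194 without and 8361 with butyrate in WT, and to 6521 and 6101 in LNCKO. Megakaryocyte genes, among which Runx1 is known to act, summed to 103.8, 148.7, 137.9 and 176.9, with a median log2 change with butyrate of 0.50 in WT and 0.29 in LNCKO over 4 tested genes. Stem and progenitor genes summed to 102.8, 102.2, 104.3 and 92.3, with Runx1 level beside them, and T and NK cell genes to 49.9, 48, 63.7 and 64.2.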
